A study of Homo sapiens with 6 samples.

Results

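The mirtrons and other short-intron miRNA entries described here are 254 of the 1596 mature miRNAs in the table (15.9%), taken by number alone: every entry that is miR-877 or is numbered from miR-1224 to miR-1238, from miR-6720 to miR-6895 or from miR-7106 to miR-7114. They belong to 166 hairpins, 88 of them with both arms listed, and comprise 139 entries of the 5p arm, 113 of the 3p arm and 2 with no arm in the name. By annotation 209 entries had at least one hairpin end at an end of an intron, 7 had neither and 38 could not be placed, so the label does not hold for every entry. The small RNA of human melanoma cells was sequenced after 24 hours of treatment with RSL3, an inhibitor of the lipid peroxide-reducing enzyme GPX4 that induces ferroptosis (the RSL3 monotreatment group, 3 libraries), or with RSL3 and the cytokine IFN-γ for as long (the combined group, 3 libraries). All 6 libraries thus carried RSL3, and untreated cells and IFN-γ alone were not analysed here. The labels name the established line A2058 whereas the study's text names A375 for this experiment, so which of these melanoma lines was sequenced is not settled here. Nothing in the labels says that the 3 libraries of a group came from separate cultures, so the p-values measure library-to-library spread only, and that spread could be technical.

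A canonical miRNA is cut first by DROSHA in the nucleus and then by DICER in the cytoplasm. A mirtron skips the first cut. A short intron is spliced out, its lariat is opened, and the freed intron folds into a hairpin that DICER can use directly, so the 5p arm begins at the splice donor (GU) and the 3p arm stops at the splice acceptor (AG). In a tailed mirtron only one end of the hairpin is made by splicing and the remaining intron is trimmed away. The supply of such miRNAs is tied to the transcription and splicing of the host gene, and their levels in most tissues are low.

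The hairpins that carry the results are printed here to show how they sit in their introns. Sequences are from RefSeq (GRCh38.p14), read 5′ to 3′, with the 2 mature arms in capitals.
MIR877: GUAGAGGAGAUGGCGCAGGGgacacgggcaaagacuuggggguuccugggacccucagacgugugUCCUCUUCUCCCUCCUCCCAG
MIR6834: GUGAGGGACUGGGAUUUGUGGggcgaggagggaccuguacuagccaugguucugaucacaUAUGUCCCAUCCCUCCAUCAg
MIR7111: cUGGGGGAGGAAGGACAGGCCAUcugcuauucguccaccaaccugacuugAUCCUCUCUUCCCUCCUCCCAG
MIR6840: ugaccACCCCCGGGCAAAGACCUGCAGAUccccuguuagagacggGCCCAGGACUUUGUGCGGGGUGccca
MIR877 (chr6:30584332-30584417, plus strand) is 86 bases long and is a whole intron of ABCF1, an ATP-binding cassette protein of translation initiation. MIR6834 (chr6:33290245-33290325, plus strand) is likewise a whole intron, of PFDN6, a subunit of the prefoldin chaperone. MIR7111 (chr6:35470508-35470579, plus strand) ends exactly at the acceptor of a 228-base intron of RPL10A, a protein of the large ribosomal subunit, and leaves 156 bases of intron on its 5′ side. MIR6840 (chr7:100356651-100356721, plus strand) lies inside a 1509-base intron of the immune receptor gene PILRB, 28 bases short of its acceptor, and so has neither end at a splice site.

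The mature arms that the results turn on are given with their seed, bases 2 to 8, in capitals. The first lines are whole-intron hairpins, the next are hairpins at an acceptor, and the last are hairpins with no end at a splice site.
miR-877-5p: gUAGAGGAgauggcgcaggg
miR-877-3p: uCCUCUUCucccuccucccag
miR-1226-5p: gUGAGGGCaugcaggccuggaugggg
miR-1226-3p: uCACCAGCccuguguucccuag
miR-1229-3p: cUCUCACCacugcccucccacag
miR-1236-3p: cCUCUUCCccuugucucuccag
miR-6834-5p: gUGAGGGAcugggauuugugg
miR-7111-5p: uGGGGGAGgaaggacaggccau
miR-7111-3p: aUCCUCUCuucccuccucccag
miR-6753-3p: uGGUCUGUcucugcccuggcac
miR-6798-3p: cUACCCCCcaucccccuguag
miR-6840-5p: aCCCCCGGgcaaagaccugcagau
miR-6840-3p: gCCCAGGAcuuugugcggggug
miR-6724-5p: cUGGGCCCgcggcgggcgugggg
miR-6720-3p: cGCGCCUGcaggaacugguaga
miR-6720-5p: uUCCAGCCcugguaggcgccgcg
RefSeq held a sequence for 219 of the 254 entries. Among these 219 there were 209 different seeds, so that the entries do not form a family by seed. The most shared seed, UGGGGUG, belonged to 3 entries (miR-6737-5p, miR-6812-5p and miR-6819-5p), and 34 entries had the seed of a miRNA outside the set, among them miR-6838-5p with AGCAGCA, the seed of miR-15 and miR-16. The 22 entries with a sequence that passed the filter on low counts had 22 different seeds.

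Most placed hairpins of these number ranges lay at intron ends. The ranges were taken under the label of mirtrons and short-intron entries, so this describes the set and is no independent check of the label. Of the 143 hairpins with a place in RefSeq, 17 were a whole intron of GENCODE release 29 on the same strand, with both ends within 5 bases of the intron ends (11.9%), against 2 of the 791 other hairpins of the table (0.253%). All 7 placed hairpins from miR-877 to miR-1238 were whole introns, but among those from miR-6720 to miR-7114 the share was 10 of 136 (7.35%). A further 118 hairpins of the set (82.5%) ended at an acceptor and had a tail of intron on their 5′ side, with a median of 279 bases and a range from 9 to 9890, against 38 other hairpins (4.80%). At the donor end stood 3 hairpins, 3 lay inside introns (miR-6840, miR-6721 and miR-6745), and 2 lay in no intron of their strand. The set was thus largely one of tailed hairpins at acceptors, with the mirtrons proper a small part of it. The whole introns were 69 to 117 bases long, with a median of 87.

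**Figure D1:**
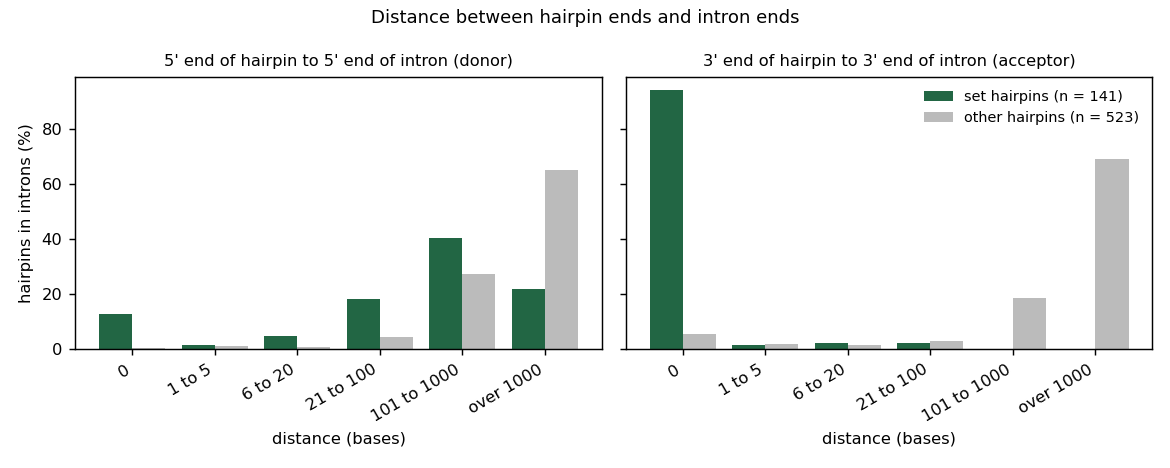
Distance in bases, in 6 classes, from the 5′ end of a hairpin to the donor end of its intron (left) and from its 3′ end to the acceptor end (right), as a percentage of the hairpins in introns, for 141 hairpins of the set (green) and 523 other hairpins of the table (grey). At the acceptor 94.3% of the set's hairpins have a distance of 0, against 5.54% of the others, while at the donor the figures are 12.8% and 0.574%.

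The mature sequences carried the marks of the splice sites. Of 99 3p arms in the set with a sequence, 77 ended in AG (77.8%) and 67 in CAG (67.7%), whereas 7.49% and 3.64% of the 467 other 3p arms did. The median share of pyrimidines was 73.9% in the set's 3p arms and 52.6% in the others, which is the composition of the tract in front of an acceptor. On the 5p side, where most hairpins of the set do not begin at a donor, GU stood within the first 3 bases in 20 of 119 arms (16.8%), against 8.46% of other 5p arms, and in 3 of the 4 arms from miR-877 to miR-1238. The 5p arms of the set were rich in G, with a median of 50% against 27.3%. Median GC content over both arms was 61.9% in the set and 50% in the other miRNAs.

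The libraries held 4383940 to 6513382 counts. Of 7 marker miRNAs of melanoma and melanocytes all were read. Levels are in CPM, counts scaled to the library's size and by its trimmed mean of M-values (TMM) factor. The summed level was 86433 to 116352 CPM in the RSL3 monotreatment group and 94592 to 148274 in the combined group, nearly all of it miR-146a-5p. That sum does not show the smaller markers. Of the 4 that were tested, miR-514a-3p fell with IFN-γ (64 ± 13 against 24.3 ± 8.59 CPM, log2 fold change -1.38 ± 0.32, edgeR adjusted p 0.0374) and 3 did not pass, beside 4.75% called over all miRNAs tested. Of these 3, miR-204-5p was lower (286 ± 54 against 170 ± 7.15 CPM, log2 fold change -0.75 ± 0.23, edgeR adjusted p 0.0750). The log2 fold changes of miR-211-5p and miR-146a-5p were positive. DESeq2 called 2 of the 4, beside 95 of all 758 tested. The untested miR-506-3p and miR-509-3p had lower means in the combined group. miR-508-3p, at 1.58, 0.447 and 1.22 CPM with RSL3, had no read in the combined libraries. Markers of muscle summed to 178 to 1333 CPM in the former and 204 to 278 in the latter, those of fibroblasts to 367 to 1241 and 314 to 540, those of blood to 117 to 181 and 100.7 to 364, those of epithelium to 87.4 to 130 and 81.4 to 102, and the liver marker miR-122-5p to 29 to 90.3 and 68.3 to 174. None of these markers was at 0 in all libraries. Their part in the results that follow was not tested.

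The set was a small fraction of the miRNA reads. It took 6106, 6954 and 4955 reads in the 3 libraries of the RSL3 monotreatment group and 4412, 6243 and 6195 in those of the combined group, 34865 in all. As a percentage of the counts of the library these were 0.104%, 0.142% and 0.0761% against 0.101%, 0.142% and 0.115%, where the exact (Clopper-Pearson) 95% interval of the highest, RSL3 replicate 2, ran from 0.139% to 0.145% and that of the lowest, RSL3 replicate 3, from 0.0740% to 0.0782%. The groups overlapped, and the RSL3 libraries differed among themselves by more than the intervals, which cover counting error only. The direction of the difference between the group means depended on the scale: the log2 ratio of the combined group to the RSL3 monotreatment group was 0.15 as a percentage of counts and -0.21 in CPM scaled with trimmed mean of M-values (TMM) factors, in which the means were 1209 ± 344 and 1044 ± 38.3 (SD, n = 3). The TMM factors were 0.861 to 0.913 in the RSL3 monotreatment group and 0.944 to 1.33 in the combined group. Every CPM value, those of the markers included, is TMM-scaled, except the cutoff of the filter on low counts and values called unscaled.

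A single arm carried most of these reads. miR-877-5p, which is the donor end of the ABCF1 intron, made up 80.7%, 83.0% and 73.5% of the set's reads in the RSL3 monotreatment group and 74.6%, 71.8% and 73.8% in the combined group. Without both arms of miR-877, the other 252 entries summed to 217 ± 26.4 CPM in the RSL3 monotreatment group and 251 ± 19.7 CPM in the combined group, and the groups overlapped. The 25 other whole-intron entries summed to 25.4, 22.4 and 16.3 CPM against 35.3, 40.5 and 30.02 CPM, all 3 libraries of the combined group above all 3 of the RSL3 monotreatment group, with a ratio of the means of 1.65. In bulk libraries such as these, a change in the number of cells with a miRNA and a change in its amount per cell cannot be told apart. The 179 acceptor-end entries summed to 81.8 ± 12.5 and 98.0 ± 5.0 CPM. The 7 entries of hairpins with no end at a splice site summed to 69.5 ± 8.29 and 72.1 ± 3.02 CPM, close to the acceptor-end sum from far fewer entries. As a percentage of counts, a scale without TMM factors, the combined libraries lay above all RSL3 libraries for the 252 entries without miR-877 (log2 ratio of the means 0.58), for the 25 whole-intron entries (1.11) and for the acceptor-end entries (0.64), so for the first and the last of these the overlap depended on the scale. In a fit with library totals only, the median log2 fold change over the 758 miRNAs tested was 0.33. Between libraries of the same replicate number, the sum of the 252 entries was higher in the combined library in 3 of 3 pairs on either scale. No test was made on these sums, whose members were chosen.

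The arms were summed apart. The 3p arms held 87.8, 104 and 109 CPM in the RSL3 monotreatment group and 114, 144 and 126 CPM in the combined group, without overlap and with a ratio of the means of 1.28. The 5p arms held 1108 ± 347 and 916 ± 39.3 CPM, a sum set by miR-877-5p. Once miR-877 was left out, the 3p arms summed to 75.3 ± 10.6 and 101.1 ± 15.6 CPM and overlapped between the groups, and the 5p arms summed to 141 ± 20.1 and 150 ± 11.7 CPM. As a percentage of counts neither of these sums overlapped between the groups, with log2 ratios of 0.82 for the 3p and 0.45 for the 5p arms. The median log2 fold change over all tested miRNAs with library totals only was 0.33. The 3p share of the reads without miR-877 was 31.1%, 35% and 38.1% in the RSL3 monotreatment group and 35.4%, 42.7% and 42.7% in the combined group, with overlap of the lowest combined library with the RSL3 libraries. In each of the 3 pairs of same-numbered libraries both the 3p share and the 3p sum without miR-877 were higher in the combined library.

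Most entries were at the edge of detection. At least 1 read fell on 141, 131 and 158 entries in the RSL3 libraries and on 135, 167 and 139 in the combined libraries. Expected at the depth of the smallest library, these numbers were 130, 128 and 142 against 135, 167 and 134, and the groups overlapped either way. Over the 6 libraries together, 131 entries (51.6%) had under 10 reads, against 20.4% of the other miRNAs, and 43 had a read in every library. Reads were found only in the RSL3 monotreatment group for 23 entries and only in the combined group for 36. The same was not counted for the other miRNAs. An entry with so few reads can be missed in a group by sampling, so these counts give no result about the set. Where a library held no read of an entry, its count of 0 allowed a level of up to 0.461 to 0.684 unscaled CPM, so such an entry was not detectable at this depth rather than absent.

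Only 27 of the 254 entries (10.6%) had counts high enough to be tested, whereas 731 of the 1342 others (54.5%) had. The question was which of them differed when IFN-γ was added to RSL3. The test was edgeR's quasi-likelihood test, with p-values adjusted by the Benjamini-Hochberg method over all 758 miRNAs tested. In it miR-6840-3p rose with IFN-γ, none fell and 26 did not pass an adjusted p of 0.05. DESeq2 called 3 of the 27 higher and 1 lower, beside 95 called of all 758 tested. The edgeR result is 1 of 27 beside a background of 4.75% called over all miRNAs tested (2.51% higher and 2.24% lower). At an unadjusted p under 0.05 there were 12 of the 27, 9 with the higher and 3 with the lower level in the combined group, against 25.9% of all tested. The libraries of the 2 groups did not overlap for 11 entries, 8 higher and 3 lower, against 29.8% of all tested (15% higher and 14.8% lower). Of the 27, 16 had a positive log2 fold change, against 48.4% of all tested. The median log2 fold change of the 27 was 0.61 and that of all tested was -0.04.

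These counts are bound up with the filter on low counts, which asked for 3 libraries above 1.95 CPM. The filter let in 6 entries with no RSL3 library above that level (miR-6840-3p, miR-6834-5p, miR-6753-3p, miR-6798-3p, miR-6735-5p and miR-6728-5p) and 1 with no combined library above it (miR-7111-5p). On the filter's scale, CPM without TMM factors, the groups of these 7 could not overlap, so their separation is no result of its own. Over all 254 entries fitted without the filter, the median log2 fold change was 0.10, and that of all 1596 miRNAs was 0.01. GC content moved with the fold change over the whole table, with a Spearman correlation of 0.47 over the 679 tested miRNAs with a sequence, while over the 22 tested entries of the set it was 0.09. Those 22 had a median GC of 63.6% against 50% for the other tested miRNAs. These points share the same 6 libraries, and the part of GC content in the results was not tested beyond the fit with its trend removed.

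**Figure D2:**
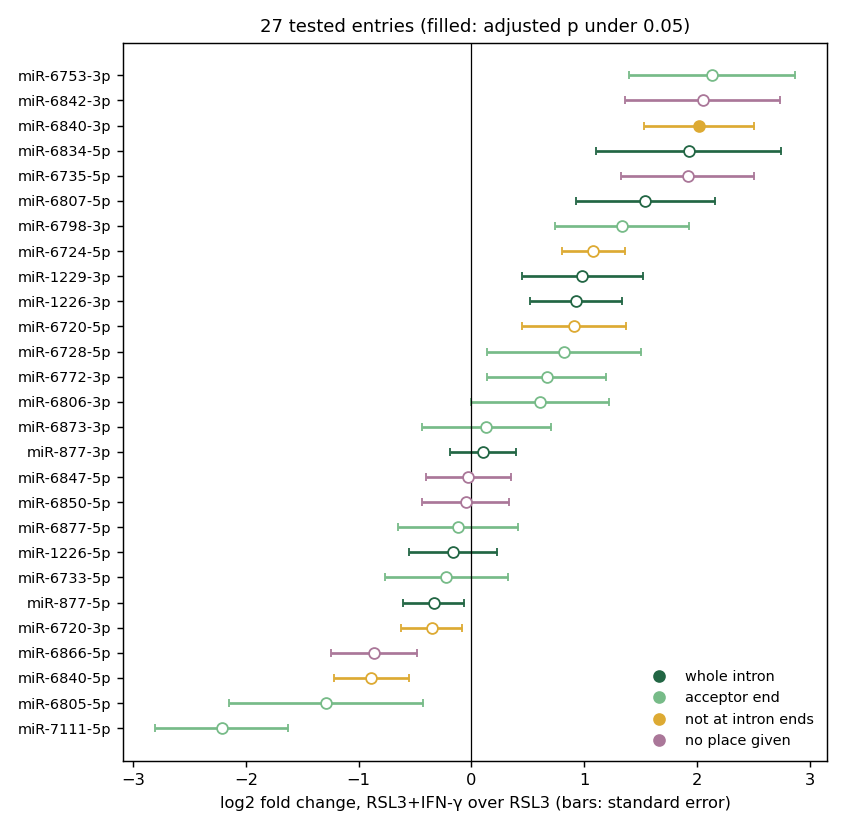
Log2 fold change of the combined group over the RSL3 monotreatment group (x axis, bars are standard errors of the edgeR fit) for the 27 tested entries, coloured by the place of the hairpin. The filled point is miR-6840-3p at 2.02, the single entry with an adjusted p under 0.05, and miR-7111-5p stands lowest at -2.22.

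miR-877 was the most abundant hairpin of the set, its 5p arm standing at rank 89 of all 1596 entries by mean level. miR-877-5p was at 972, 1290 and 637 CPM in the RSL3 monotreatment group and at 796, 765 and 738 CPM in the combined group. The combined libraries all lay within the span of the RSL3 libraries. The log2 fold change was -0.33 ± 0.27 (SE), with an adjusted p of 0.476 in edgeR's quasi-likelihood test. The opposite arm, miR-877-3p, was read at 22.7, 18.1 and 34.5 CPM and at 28.7, 27.7 and 24.9 CPM, again with the combined libraries inside the span of the others. Its log2 fold change was 0.11 ± 0.29 (edgeR adjusted p 0.847).

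miR-1226 is the whole 75-base intron of DHX30 (chr3:47849555-47849629, plus strand), an RNA helicase. It was the next most abundant of the set's placed whole-intron hairpins. miR-1226-5p was at 9.86, 10.1 and 6.30 CPM against 11.8, 5.81 and 5.97 CPM, with overlapping groups and a log2 fold change of -0.16 ± 0.39 (edgeR adjusted p 0.817). miR-1226-3p was at 5.92, 4.92 and 2.80 CPM against 7.25, 11.4 and 7.10 CPM. All combined libraries were above all RSL3 libraries for this arm, with a log2 fold change of 0.93 ± 0.41 that did not pass (edgeR adjusted p 0.179).

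Among the other hairpins from miR-1224 to miR-1238, only miR-1229-3p had enough reads to be tested. It is the acceptor end of the 69-base intron of MGAT4B, an enzyme that branches N-glycans, and was at 3.95, 1.34 and 2.80 CPM against 2.66, 7.86 and 5.49 CPM, with overlap (log2 fold change 0.98 ± 0.54, edgeR adjusted p 0.272). miR-1229-5p had 3, 0 and 0 reads against 3, 2 and 0. miR-1236-3p, from the 102-base intron of NELFE, a subunit of the negative elongation factor, had 2, 1 and 0 reads against 3, 10 and 7, so that each combined library held more reads than each RSL3 library. miR-1236-5p had 1 read in a single library of each group. The rest were at a few reads in either group: miR-1237-3p (intron of RPS6KA4) had 1, 0 and 1 against 5, 0 and 2, miR-1228-3p (intron of LRP1, an endocytic receptor) 0, 3 and 0 against 1, 0 and 4, and miR-1227-3p (intron of PLEKHJ1) 0, 0 and 3 against 0, 3 and 2. miR-1234-3p had 11, 9 and 1 reads against 6, 10 and 0. For none of the last 4 did the groups separate.

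The later-numbered whole introns were represented in the test by miR-6807-5p and miR-6834-5p. miR-6834-5p begins at the donor of the PFDN6 intron and was at 1.58, 0 and 0.350 CPM against 2.90, 1.71 and 3.07 CPM. The groups did not overlap, as the filter had fixed on its own scale, and the log2 fold change was 1.93 ± 0.82 (edgeR adjusted p 0.172). It moved to 3.57 without RSL3 replicate 1, the only RSL3 library with more than a few reads, and was 1.38 without RSL3 replicate 2, and it passed in neither case (edgeR adjusted p 0.187 and 0.296). Its 3p arm had 4 reads in all. miR-6807-5p, from a 92-base intron of the transcriptional corepressor gene TRIM28, was tested too, and its log2 fold change of 1.54 ± 0.61 did not pass (edgeR adjusted p 0.148). Its values were 0.592, 2.24 and 0.875 CPM against 4.59, 4.10 and 2.10 CPM, the lowest combined library falling below the highest RSL3 library, although the combined library was the higher in each same-numbered pair. It was named after its values were seen, as the remaining tested whole-intron entry.

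Among the tested acceptor-end entries, miR-7111-5p had the largest difference in size and the lower level with IFN-γ. It comes from the RPL10A intron and had 20, 21 and 13 reads in the RSL3 monotreatment group and 5, 4 and 3 in the combined group, or 3.95, 4.69 and 2.28 CPM against 1.21, 0.683 and 0.484 CPM. No combined library reached the level of any RSL3 library, a separation that the filter had fixed, since the entry passed through its RSL3 libraries alone. The log2 fold change was -2.22 ± 0.59, and it lay just outside the threshold (edgeR adjusted p 0.0557). With the replicate number as a block, a pairing that the titles do not state, the adjusted p in edgeR was 0.0399, with a log2 fold change of -2.20. It passed without combined replicate 1 (edgeR adjusted p 0.0453). It did not pass without RSL3 replicate 2, RSL3 replicate 3, combined replicate 2 or combined replicate 3 (edgeR adjusted p 0.0858 to 0.173). Without RSL3 replicate 1 it was not tested.

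The other acceptor-end entries with separate groups stood higher in the combined group. miR-6753-3p, from a 613-base intron of TCIRG1, a subunit of the vacuolar proton pump, was at 0, 1.118 and 0.875 CPM against 3.14, 2.73 and 3.07 CPM. The combined libraries lay close together and above every RSL3 library, with a log2 fold change of 2.14 ± 0.74 that did not pass (edgeR adjusted p 0.109). miR-6798-3p, from a 90-base intron of the ATPase gene RUVBL2 with a tail of 23 bases, was at 0.395, 1.118 and 1.75 CPM against 3.38, 2.39 and 2.74 CPM (log2 fold change 1.34 ± 0.59, edgeR adjusted p 0.182). Its 5p arm had 7 reads in RSL3 replicate 3, 1 in combined replicate 2 and none elsewhere. For both of these 3p arms no RSL3 library was above the filter's 1.95 CPM, so the filter had fixed their separation on its own scale.

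miR-6840, the hairpin inside the PILRB intron, gave the one called difference. miR-6840-3p had 6, 4 and 9 reads in the RSL3 monotreatment group and 20, 38 and 24 in the combined group, or 1.18, 0.894 and 1.57 CPM against 4.83, 6.49 and 3.87 CPM. Every combined library was above every RSL3 library. No RSL3 library was above the filter's 1.95 CPM, so the filter had fixed this separation on its own scale. The log2 fold change was 2.02 ± 0.49 with an adjusted p of 0.0405 in edgeR's quasi-likelihood test. The call was lost when any one library other than combined replicate 1 was left out (adjusted p 0.0694 to 0.206, log2 fold change 1.79 to 2.23), and with the GC trend of each library removed (log2 fold change 1.53, adjusted p 0.106).

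The 5p arm of the same hairpin stood the other way. miR-6840-5p was at 29, 29.7 and 20.8 CPM in the RSL3 monotreatment group and at 20.8, 9.73 and 12.7 CPM in the combined group. The groups just failed to overlap, at RSL3 replicate 3 and combined replicate 1, and the log2 fold change of -0.89 ± 0.33 did not pass (edgeR adjusted p 0.136). It passed without combined replicate 1 (log2 fold change -1.25, edgeR adjusted p 0.0292), in a fit that called 95 of 815 miRNAs.

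The 2 hairpins outside introns were among the most abundant entries of the set. miR-6724-5p, of 91.3% GC, is encoded in 4 copies on the short arm of chromosome 21 in RefSeq (GRCh38.p14), of which 3 lie 582, 582 and 601 bases before an annotated 45S ribosomal RNA gene (RNA45SN2, RNA45SN3 and RNA45SN1), so its reads cannot be assigned to a copy. It was at 13.6, 13.0 and 12.2 CPM in the RSL3 monotreatment group and 21.3, 34.3 and 26.5 CPM in the combined group. The RSL3 libraries agreed closely and all lay below the combined libraries. The log2 fold change was 1.08 ± 0.28, just outside the threshold (edgeR adjusted p 0.0528), and it passed with 5 of the alternatives given further on. With the GC trend of each library removed the log2 fold change was 0.27 (adjusted p 0.647), and with the replicate block as well it was 0.30 (adjusted p 0.568).

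miR-6720 lies on the minus strand (chr6:1390314-1390411), opposite exon 1 of the forkhead transcription factor gene FOXF2. miR-6720-3p was at 23.3, 30.4 and 19.9 CPM against 17.9, 18.8 and 20.8 CPM, with overlap (log2 fold change -0.35 ± 0.27, edgeR adjusted p 0.441). miR-6720-5p was at 2.17, 2.24 and 4.37 CPM against 3.87, 5.81 and 6.94 CPM, also with overlap (log2 fold change 0.91 ± 0.46, edgeR adjusted p 0.237).

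**Figure D3:**
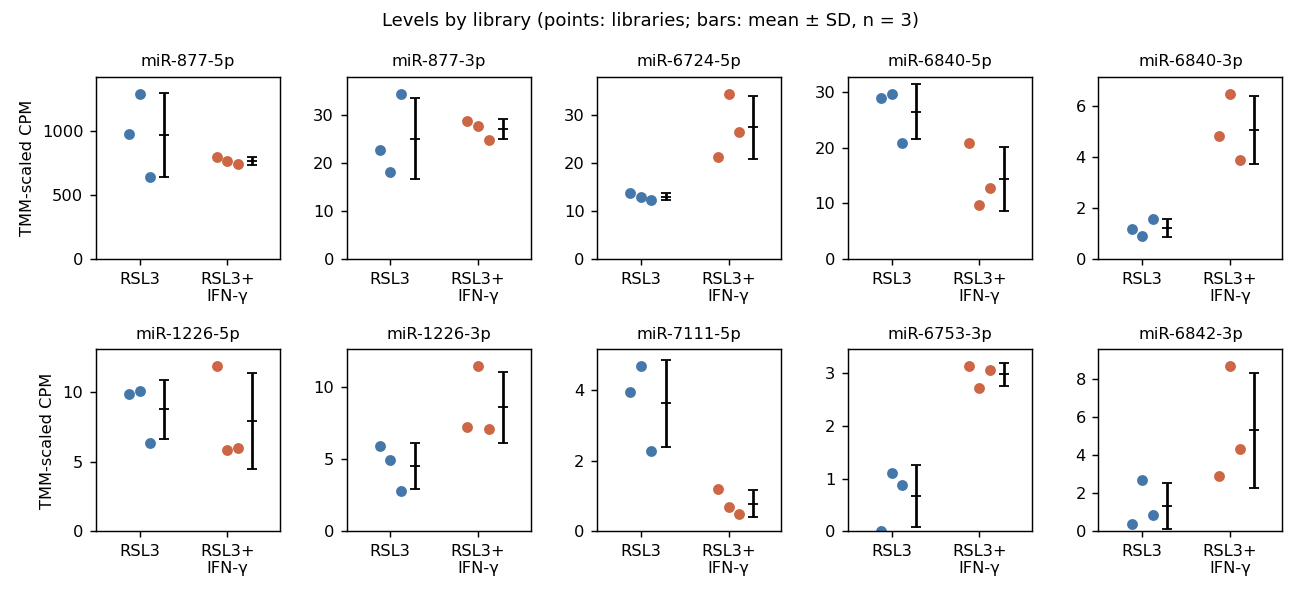
Level in TMM-scaled CPM of 10 entries in each library (points) with the mean and SD of each group (bars, n = 3), each panel on its own linear axis from 0. The groups are separate for miR-6724-5p, miR-6840-5p, miR-6840-3p, miR-1226-3p, miR-7111-5p, miR-6753-3p and miR-6842-3p and overlap for miR-877-5p, miR-877-3p and miR-1226-5p. For miR-6840-3p, miR-7111-5p and miR-6753-3p the filter on low counts had fixed the separation on its own scale.

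Of the entries without a place in RefSeq, miR-6842-3p was at 0.395, 2.68 and 0.875 CPM against 2.90, 8.71 and 4.36 CPM. Its groups were separate by a small margin, at RSL3 replicate 2 and combined replicate 1, and the log2 fold change of 2.05 ± 0.69 did not pass (edgeR adjusted p 0.0981). With the replicate number as a block it did (log2 fold change 2.13, edgeR adjusted p 0.0384). When 1 library was left out, the log2 fold change ranged from 1.49 without combined replicate 2 (edgeR adjusted p 0.310) to 3.01 without RSL3 replicate 2 (adjusted p 0.0467). miR-6735-5p was at 0.395, 0.671 and 0.875 CPM against 2.66, 1.88 and 3.07 CPM, with a log2 fold change of 1.92 ± 0.59 (edgeR adjusted p 0.0790) and groups whose separation the filter had fixed. miR-6735-3p had 0, 3 and 5 reads against 2, 4 and 9.

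miR-6866-5p was at 14, 8.94 and 8.57 CPM against 8.21, 4.44 and 4.84 CPM. It was the third entry with separate groups and lower levels in the combined group, besides miR-7111-5p and miR-6840-5p, and its log2 fold change of -0.87 ± 0.38 did not pass (edgeR adjusted p 0.180). miR-6850-5p, at 8.09, 12.3 and 5.60 CPM against 6.28, 10.9 and 7.58 CPM, and miR-6847-5p, at 6.51, 8.05 and 6.30 CPM against 7.97, 8.37 and 4.20 CPM, overlapped fully, with log2 fold changes of -0.05 ± 0.39 and -0.03 ± 0.38. miR-6850-3p had 2, 11 and 8 reads against 1, 6 and 11, and miR-6847-3p 2, 1 and 4 against 0, 5 and 0.

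The ratio of the arms of a hairpin does not depend on library size, and it compares 2 products of the same precursor. With limma on the log2 ratio of 3p to 5p reads, over the 181 hairpins whose arms both averaged 10 reads or more, no hairpin passed an adjusted p of 0.05, while 35 (19.3%) had an unadjusted p under 0.05, among them 3 of the 4 hairpins of the set that could be tested. For miR-6840 the log2 ratio was -4.50, -4.89 and -3.65 in the RSL3 monotreatment group and -2.08, -0.58 and -1.70 in the combined group. The 5p arm was the more abundant in all 6 libraries, by less in each combined library than in any RSL3 library. The difference was 2.90 ± 0.51 (SE), with a limma p of 0.000357 and an adjusted p of 0.0647.

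For miR-1226 the log2 ratio was -0.73, -1.02 and -1.15 against -0.70, 0.97 and 0.25, a difference of 1.14 ± 0.46 (limma adjusted p 0.230), with the groups separated by a narrow margin. For miR-6720, whose 3p arm was the more abundant throughout, it was 3.37, 3.70 and 2.17 against 2.17, 1.68 and 1.57, a difference of -1.27 ± 0.47 (limma adjusted p 0.230) with a slight overlap. For miR-877 it was -5.42, -6.15 and -4.20 against -4.78, -4.79 and -4.89, a difference of 0.44 ± 0.50 (limma adjusted p 0.636). The combined libraries agreed closely in this ratio and lay inside the range of the RSL3 libraries.

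With a minimum mean of 5 reads of each arm, 228 hairpins could be tested and 1 of them passed (0.439%), which was miR-7111 of the set. Its 5p arm had 20, 21 and 13 reads against 5, 4 and 3 and its 3p arm 3, 3 and 4 against 10, 10 and 8, so the 5p arm was the more abundant in the RSL3 libraries and the 3p arm in the combined libraries. The log2 ratio was -2.55, -2.62 and -1.58 against 0.93, 1.22 and 1.28, a difference of 3.40 ± 0.41 (limma adjusted p 0.0187). The call was lost with the replicate number as a block (adjusted p 0.121) and when any library other than RSL3 replicate 3 was left out (adjusted p 0.0801 to 0.143), while the difference ranged from 3.21 to 3.73. Of the other hairpins of the set admitted at 5 reads, miR-6820 and miR-6850 overlapped between the groups.

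The 227 entries that were not tested had 2 to 62 reads over the 6 libraries, with a median of 8. Together they came to 78.3 ± 11.8 CPM in the RSL3 monotreatment group and 94.8 ± 5.86 CPM in the combined group, with overlap. As a percentage of counts they did not overlap (log2 ratio of the means 0.65, beside a median log2 fold change of 0.33 over all tested miRNAs with library totals only). The 5p arms of the 227 entries summed to 46.5 ± 9.58 and 53.9 ± 4.08 CPM and their 3p arms to 31.1 ± 5.48 and 40.9 ± 6.90 CPM. One of them, chosen after its values were seen because its host is an IFN-γ-responsive gene, is miR-6891-5p, a whole 93-base intron of HLA-B (chr6:31355224-31355316, minus strand). It had no read in 5 libraries and 4 in combined replicate 2.

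Other miRNAs that share a part of this origin were set beside the set. miR-320a and miR-484 are known to be made without DROSHA by another route, and with their relatives miR-320b, miR-320c, miR-320d and miR-320e they form a list of 6, all of them tested. miR-320c rose with IFN-γ (log2 fold change 1.17 ± 0.25, edgeR adjusted p 0.0316) and 5 did not pass, against the 4.75% called over all miRNAs tested. At an unadjusted edgeR p under 0.05 there were 4 of the 6, against 25.9% of all tested. Of these miR-320b, miR-320c and miR-320d were higher and miR-484 was lower (log2 fold change -0.64). DESeq2 called 3 of the 6, beside 95 called of all 758 tested. In limma 1 was called, beside 36 or 51 of 758 with a pseudocount of 1 or 5 CPM. The miR-320 members are alike enough in sequence for reads to be shared. The median log2 fold change of the 6 was 0.39, with 3 of them positive, and miR-320a-3p, the most abundant, was at -0.23. Of 4 entries outside the set whose hairpins are whole introns, only miR-3620-3p was tested, and it was not called (log2 fold change 0.49 ± 0.74, edgeR adjusted p 0.710). These 4 summed to 0.789 to 3.58 CPM in the RSL3 monotreatment group and 3.38 to 9.90 CPM in the combined group, ranges that overlap. Of 60 entries outside the set whose hairpins end at an acceptor, 14 were tested and none was called in edgeR, DESeq2 or limma, with 1 at an unadjusted edgeR p under 0.05 and a median of -0.03. They summed to 183 to 198 CPM in the RSL3 monotreatment group and 170 to 207 CPM in the combined group.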

How the data were processed

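For each of 6 libraries the table, as deposited, holds raw read counts per mature miRNA and a signal that the authors obtained by scaling the counts to depth. The authors also deposited a log2 fold change, a linear fold and p-values of their own comparison, none of which was used. According to the submitters' processing notes, reads were handled with bcl2fastq and Bowtie 1.1.1 on GRCh38, and edgeR was run. The miRBase release was not given in the sources used here, nor was the counting of reads with several matches. The library kit differs between the labels and the study's text.

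The raw counts were fitted with edgeR 4.0.16 (R 4.3.3), as a two-sided quasi-likelihood test with TMM factors and Benjamini-Hochberg adjustment. Its filter was set to a count of 10 in 3 libraries and 15 reads in all. DESeq2 1.42.0 and limma 3.58.1 (pseudocount 1 or 5 CPM) served as alternatives. Arm ratios were fitted with limma after 0.5 reads had been added. The scripts were tested on simulated counts.

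Entries were matched by name to RefSeq (GRCh38.p14). Hairpin ends, or the outer ends of the arms where these lay nearer, were compared with introns of GENCODE release 29. The members and lists were chosen with earlier results of these data known. Named were called entries, the 10 most abundant, up to 6 per direction with the largest change and separate groups, miR-877 and every entry from miR-1224 to miR-1238, and their other arms.

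The replicate numbers of the titles were taken to pair the libraries, although the titles state no pairing. Departures from the group means correlated between same-numbered libraries (0.25, 0.23 and 0.22 over 758 miRNAs). Correlations between libraries of different number were not computed, and departures within a group depend on each other. These values therefore do not establish the pairing. With 3 libraries a group, an exact permutation test cannot give a two-sided p under 0.1. Depth was 4383940 to 6513382 counts.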

Additional observations from a re-analysis of the deposited data

How the results depend on the processing

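Counts of this size rest on few reads, so calls near the threshold moved with the settings. The number of entries called higher, 1 in the reported fit, was 2 with RLE factors, 3 with library totals only, with DESeq2 and without a filter, 2 with the replicate block, 0 with the GC trend removed and 0 with both. It was 0 to 3 when 1 library was left out. The number called lower, 0 in the reported fit, was 1 with DESeq2, without a filter, with the replicate block, with the GC trend removed and with both, and 0 to 2 when 1 library was left out. miR-6840-3p, miR-6724-5p, miR-6842-3p, miR-6735-5p and miR-7111-5p account for these calls, with miR-6840-5p and miR-6800-3p besides without combined replicate 1. That fit called 95 of 815 over all miRNAs. Leaving out RSL3 replicate 1, RSL3 replicate 3, combined replicate 2 or combined replicate 3 left no entry of the set called. Over all miRNAs those fits called 0 of 810, 22 of 805, 6 of 787 and 7 of 782. Without RSL3 replicate 2 the call was miR-6842-3p, beside 55 of 816 over all miRNAs. Calls over all 758 miRNAs were 36 in the reported fit, 46 with RLE factors, 71 with library totals and 95 with DESeq2. They were 82 with the block, 20 with the GC trend removed and 28 with both. Without a filter 106 of 1596 were called. Of the set, upper-quartile factors, both limma fits and a minimum count of 5 called miR-6840-3p alone. miR-6724-5p passed with RLE factors (adjusted p 0.0447), library totals (0.0252), DESeq2 (0.0113), no filter (0.0260) and without combined replicate 1 (0.0205), and its log2 fold change of 1.08 was 0.27 with the GC trend removed (0.647) and 0.30 with the block as well (0.568). The replicate block changed the calls of miR-6842-3p and miR-7111-5p and of the arm ratio of miR-7111, and no other. Library totals moved the median over the 758 miRNAs to 0.33 from -0.04 on the log2 scale, and upper-quartile factors to -0.13. Fold changes near 0 changed sign, none of them called. With library totals only they became 0.026 for miR-877-5p, 0.016 for miR-6720-3p, 0.35 for miR-6850-5p, 0.15 for miR-1226-5p and 0.34 for miR-6847-5p. miR-6847-5p was also at 0.0096 with RLE factors and at 0.0099 with DESeq2. miR-877-3p was at -0.27 with the GC trend removed and at -0.21 with the block as well. With 1 library left out, miR-877-3p ranged from -0.090 to 0.38, the arm ratio of miR-877 from -0.0092 to 0.96, miR-6850-5p from -0.32 to 0.27, miR-1226-5p from -0.57 to 0.0060 and miR-6847-5p from -0.22 to 0.22. The log2 ratio of the set's summed share of counts, 0.15, was -0.21 in TMM-scaled CPM, 0.58 without miR-877, 0.65 over the entries that did not pass the filter (an alternative added after seeing the data, as were the acceptor-end list and the refits of miR-7111), and -0.04 to 0.41 when 1 library was left out. The number of hairpins with a called arm ratio, 0, was 1 at a minimum of 5 reads. The cause of these shifts was not tested. At 14 to 18 the number of whole-intron hairpins moved little with a tolerance of 2 or 10 bases.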
